A study of Mus musculus with 4 samples.

Results

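Transcripts of cholesterol synthesis were followed in dendritic cells that had been exposed to sulforaphane before stimulation with lipopolysaccharide (LPS). The genes were selected by a list of 7 names: Srebf2 and Insig1, which regulate the pathway, and Hmgcs1, Idi1, Fdft1, Sqle and Cyp51, which encode enzymes of it. Of these 7 genes, 6 had a probe set annotated with their symbol alone, out of 22180 genes with such a probe set, and each of the 6 had 1 such probe set. The 1 probe set listed under Idi1, the isomerase that makes dimethylallyl diphosphate, also carried a second symbol, so no value is given for that gene. The set was labelled as synthesis and uptake, but none of the 7 encodes an uptake receptor, and the genes are therefore called cholesterol synthesis genes here. All 6 measured genes passed the filter on dim probe sets and were among the 14652 genes tested.

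The cells were grown in culture from bone marrow of C57BL/6 mice and harvested on day 7 as dendritic cells, the cell type that presents antigen to T cells. The sulforaphane group (2 arrays) received 0.3 µM sulforaphane, an isothiocyanate of cruciferous vegetables known to activate the transcription factor NRF2, for 2 h in DMSO. The DMSO group (2 arrays) received the solvent alone for 2 h. Both groups were then stimulated for 1 h with 100 ng/ml LPS, the bacterial ligand of TLR4, so every array is from LPS-stimulated cells and cells without LPS were not analysed here. The labels give no age or sex of the mice. Nor do they tell if the 2 replicates of a group were separate cultures, and the p-values therefore cover the spread between these arrays alone, part or all of which may be technical. In such bulk samples, fewer cells of a type and less RNA per cell cannot be told apart.

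Cholesterol is built from acetyl-CoA through mevalonate, isoprenoid diphosphates, squalene and lanosterol. The pathway is controlled by SREBP-2, the product of Srebf2, a transcription factor held in the endoplasmic reticulum as a precursor together with its escort SCAP. When sterols are plentiful, INSIG proteins keep SCAP and the precursor there; when sterols are scarce, the precursor moves to the Golgi, is cleaved by the proteases encoded by Mbtps1 and Mbtps2, and its released part switches on the enzymes of the pathway and Insig1. Oxysterols such as 25-hydroxycholesterol bind INSIG and hold this step back. In macrophages and dendritic cells the pathway is known to be tied to inflammatory activation, partly through Ch25h, the enzyme that makes 25-hydroxycholesterol.

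SREBP binds sterol regulatory elements in promoters and acts there together with NF-Y, which binds CCAAT boxes. The promoters of Hmgcs1, Insig1 and Srebf2 are shown because the differences of Hmgcs1 and Insig1 lay on opposite sides of 0, and because Srebf2 encodes the regulator. Each window runs from 250 bases before to 50 bases after the start of the gene, 5′ to 3′ on the strand of the gene, from RefSeq, build GRCm38.p6. The windows are chr13:119690101-119690400 for Hmgcs1, chr5:28071162-28071461 for Insig1 and chr15:82147019-82147318 for Srebf2, all on the plus strand. Capitals mark matches, on either strand, to the sterol regulatory element core CACNCCAC and to the CCAAT box CCAAT, which reads ATTGG on the other strand.

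Hmgcs1: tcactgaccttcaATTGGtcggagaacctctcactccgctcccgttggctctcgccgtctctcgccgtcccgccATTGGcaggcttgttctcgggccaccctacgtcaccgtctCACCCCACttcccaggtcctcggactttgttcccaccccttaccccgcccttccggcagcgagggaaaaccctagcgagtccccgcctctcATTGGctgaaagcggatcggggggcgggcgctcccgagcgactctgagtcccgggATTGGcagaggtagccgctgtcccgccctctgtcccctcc

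Insig1: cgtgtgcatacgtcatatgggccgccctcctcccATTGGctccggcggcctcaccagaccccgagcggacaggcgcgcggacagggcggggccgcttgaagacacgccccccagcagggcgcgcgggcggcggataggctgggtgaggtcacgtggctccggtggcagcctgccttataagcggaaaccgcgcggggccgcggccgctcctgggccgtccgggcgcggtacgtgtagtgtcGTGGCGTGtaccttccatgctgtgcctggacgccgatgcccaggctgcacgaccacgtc

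Srebf2: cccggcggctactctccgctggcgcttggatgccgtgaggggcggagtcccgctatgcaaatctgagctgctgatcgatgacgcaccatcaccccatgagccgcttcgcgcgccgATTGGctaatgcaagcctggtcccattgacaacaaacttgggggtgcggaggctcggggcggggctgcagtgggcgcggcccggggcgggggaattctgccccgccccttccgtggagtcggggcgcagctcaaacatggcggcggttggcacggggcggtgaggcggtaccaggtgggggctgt

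The Hmgcs1 window held 1 match to the sterol regulatory element core, starting at position -136 from the start of the gene, and 4 CCAAT boxes. The Insig1 window held 1 match to the core on the other strand, starting at position -9, and 1 CCAAT box. The Srebf2 window held 1 CCAAT box and no match to the core. Of the 7 listed genes, 5 matched a promoter in the RefSeq table (these 3, Cyp51 and Idi1). A CCAAT box was present in 5 of these 5 windows, against 37.4% of all 32851 promoter windows in the table, and in 12 of 16 windows of 13 other sterol synthesis enzymes. The sterol regulatory element core was present in 2 of the 5 windows and in 1 of the 16 windows of the other enzymes, against 6.24% of all windows. The antioxidant response element core TGACNNNGC, the motif that NRF2 is known to bind, was in 0 of the 5 windows and in 4 of the 16, against 12.4% of all windows. None of the marked matches overlapped another motif. A match is a run of letters and not a shown binding site.

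After sulforaphane, the 6 measured genes differed from DMSO by at most 0.33 on the log2 scale, and 0 of them passed an adjusted p of 0.05 by limma, against 0.13% of all genes tested. The values below are RMA values on a log2 scale, in which a difference of 1 is a doubling. Hmgcs1 and Sqle were 1.23-fold and 1.26-fold lower after sulforaphane, the regulator Insig1 was 1.13-fold higher, and Srebf2 was 1.06-fold lower. At an unadjusted p of 0.05 by limma, 2 of the 6 were lower and 0 higher, against 5.87% of all genes lower and 7.09% higher. The arrays of both groups did not overlap for 3 genes that were lower (19.5% of all genes) and for 1 that was higher (24% of all genes), 4 of 6 in all against 43.6% of all genes. The median difference of the 6 genes was -0.16, against 0.018 over all genes tested, where 45.8% of genes lay below 0. It was -0.24 without sulforaphane replicate 1, -0.075 without sulforaphane replicate 2 and -0.28 without DMSO replicate 1. The 95% interval of each of the 6 stayed within 1.52-fold of DMSO in either direction.

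**Figure D1:**
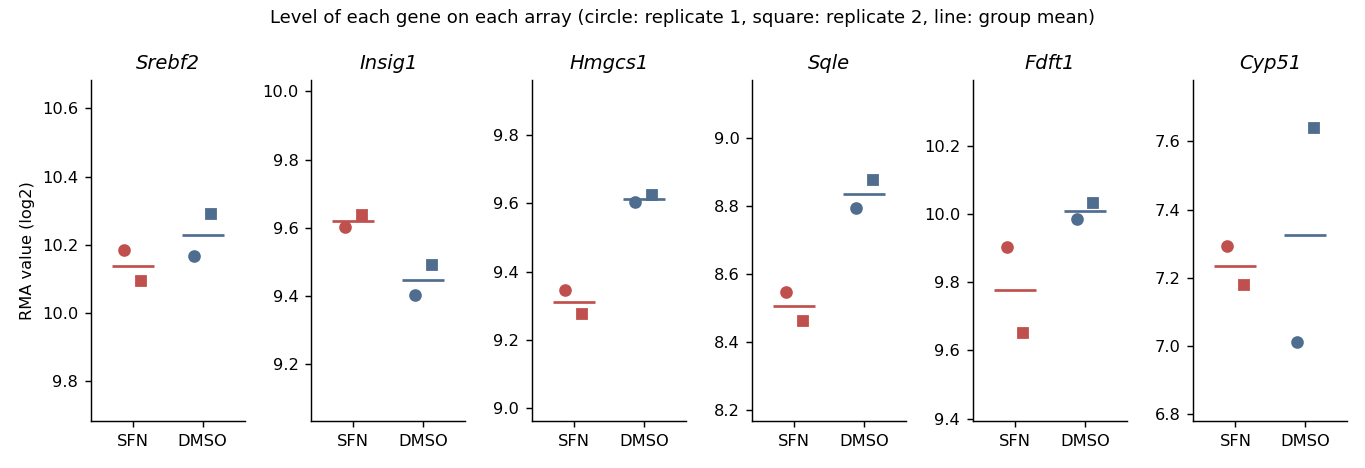
RMA values (log2) of the 6 measured genes on each of the 4 arrays, sulforaphane (SFN) left and DMSO right in each panel, with a circle for replicate 1, a square for replicate 2 and a line for the group mean. All panels span the same height of 1 log2 unit; Hmgcs1 and Sqle lie lower on both sulforaphane arrays, Insig1 lies higher on both, and the DMSO arrays of Cyp51 lie 0.63 apart.

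Among the regulators, Srebf2, which encodes SREBP-2 itself, measured 10.18 and 10.09 in sulforaphane-treated cells, against 10.17 and 10.29 in DMSO-treated cells. The groups overlapped. The means were 10.14 ± 0.064 after sulforaphane and 10.23 ± 0.087 in DMSO (SD, n = 2 each), a difference of -0.091 ± 0.11 SE (95% interval -0.37 to 0.19; adjusted p = 0.811 by limma). The interval allows at most a 1.29-fold lower or a 1.14-fold higher level.

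Insig1, the endoplasmic reticulum anchor that is itself a target of SREBP-2, measured 9.60 and 9.64 in sulforaphane-treated cells, against 9.40 and 9.49 in DMSO-treated cells. Both sulforaphane arrays lay above both DMSO arrays, and Insig1 was the single measured gene of the set with a difference above 0. Its means were 9.62 ± 0.023 after sulforaphane and 9.45 ± 0.062 in DMSO (SD, n = 2 each), a difference of 0.17 ± 0.11 SE (95% interval -0.092 to 0.43; adjusted p = 0.574 by limma). The difference exceeded the larger gap between replicates, 0.088, but did not pass the test.

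The first enzyme measured, Hmgcs1, is the cytosolic HMG-CoA synthase that makes the precursor of mevalonate. It measured 9.35 and 9.28 in sulforaphane-treated cells, against 9.60 and 9.62 in DMSO-treated cells. Both sulforaphane arrays lay below both DMSO arrays, and the replicates of each group lay close together, at most 0.070 apart. The means were 9.31 ± 0.050 after sulforaphane and 9.61 ± 0.014 in DMSO (SD, n = 2 each), a difference of -0.30 ± 0.11 SE (95% interval -0.56 to -0.044). With an unadjusted p of 0.0288 and an adjusted p of 0.323 over all genes by limma, it did not pass, and 7.15% of the genes tested had a lower difference.

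Fdft1, squalene synthase, which commits isoprenoid units to sterols, measured 9.90 and 9.65 in sulforaphane-treated cells, against 9.99 and 10.03 in DMSO-treated cells. The groups did not overlap, but the sulforaphane arrays lay 0.25 apart, which is more than the difference between the groups. That difference was -0.23 ± 0.13 SE (95% interval -0.55 to 0.081; adjusted p = 0.520 by limma). Without sulforaphane replicate 2 it was -0.11.

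Sqle, squalene epoxidase, the first oxygen-requiring step of the sterol branch, measured 8.55 and 8.46 in sulforaphane-treated cells, against 8.79 and 8.87 in DMSO-treated cells. As for Hmgcs1, both sulforaphane arrays lay below both DMSO arrays. The means were 8.51 ± 0.059 after sulforaphane and 8.83 ± 0.058 in DMSO (SD, n = 2 each), a difference of -0.33 ± 0.11 SE (95% interval -0.60 to -0.060), with an adjusted p of 0.301 by limma. The unadjusted p was 0.0241. The difference of Sqle was the lowest of the 6 measured genes, and 6.14% of all genes tested lay lower still.

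Cyp51, the lanosterol demethylase, measured 7.29 and 7.18 in sulforaphane-treated cells, against 7.01 and 7.64 in DMSO-treated cells. Both sulforaphane arrays lay between the DMSO arrays, whose gap of 0.63 was the widest replicate gap of the 6 genes. The difference was -0.090 ± 0.21 SE (95% interval -0.61 to 0.43; adjusted p = 0.909 by limma). It turned to 0.22 without DMSO replicate 2 and was -0.40 without DMSO replicate 1, so its direction was set by which DMSO array was used.

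An exact permutation test of 2 arrays against 2 cannot give a two-sided p below 0.333, which Insig1, Hmgcs1, Fdft1 and Sqle reached.

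**Figure D2:**
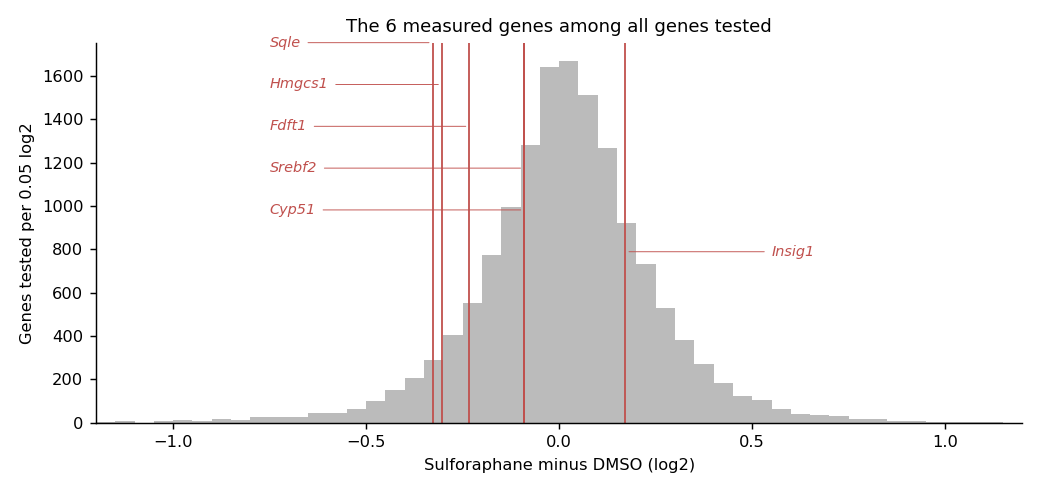
Histogram of the difference between sulforaphane and DMSO (log2) over the 14652 genes tested, in steps of 0.05, drawn from -1.2 to 1.2, with a red line at each of the 6 measured genes. Sqle (-0.33) and Hmgcs1 (-0.30) lie in the lower flank with 6.14% and 7.15% of genes below them, Insig1 (0.17) has 79.1% of genes below it, and Srebf2 and Cyp51 (-0.091 and -0.090) lie near the centre.

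Ratios within an array do not depend on a shift of the whole array, and they were used to set the genes against each other. The log2 ratio of Insig1 to Hmgcs1 was 0.26 and 0.36 in sulforaphane-treated cells, against -0.20 and -0.13 in DMSO-treated cells, a difference of 0.48. The log2 ratio of Sqle to Hmgcs1 was -0.80 and -0.81 in sulforaphane-treated cells, against -0.81 and -0.75 in DMSO-treated cells, a difference of -0.024. Hmgcs1 and Sqle thus differed from DMSO by nearly the same amount, and Insig1 differed from both in the other direction. These ratios were chosen after the values were seen, they compare changes and not levels of different probe sets, and they carry no test.

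The mean of the 6 genes, each centred on its own mean over the 4 arrays, was -0.024 and -0.12 in sulforaphane-treated cells, against -0.0095 and 0.16 in DMSO-treated cells. The arrays of each group lay further apart than sulforaphane replicate 1 and DMSO replicate 1 did from each other. The genes whose centred values were nearest to this mean pattern, by root mean square distance over the 4 arrays, were Pfkp, a phosphofructokinase (distance 0.0035 on the log2 scale), the inhibitory receptor Cd200r1 (0.0053), Tbc1d1, a Rab GTPase-activating protein (0.0064), Acsl4, an acyl-CoA synthetase for polyunsaturated fatty acids (0.0082), and the connexin gene Gjd3 (0.0082). They differed by between -0.15 and -0.14 and did not pass the test (adjusted p between 0.652 and 0.696 by limma). With the mean of its probe sets Tbc1d1 differed by -0.042, so its match rests on its brightest probe set. A distance over 4 arrays is a description only.

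The other enzymes of the pathway had differences spread around 0. The list used here held 15 of them and is not complete; 13 had a probe set of their own and were tested. Of these 13, 0 were called higher and 0 lower by limma (against 0.0614% and 0.0683% of all genes). At an unadjusted p of 0.05 by limma it was also 0, against 13% of all genes. Their median difference was 0.0073, with 9 above 0 and 4 below, against 0.018 over all genes. A second quantile normalization of the 4 arrays turned it to -0.019, with 5 above 0 and 8 below, against -0.0064 over all genes. Mvk, mevalonate kinase, measured 7.49 and 7.50 in sulforaphane-treated cells, against 7.05 and 7.36 in DMSO-treated cells. The groups did not overlap, but the difference of 0.29 ± 0.14 SE (adjusted p = 0.443 by limma) was no wider than the gap of 0.31 between the DMSO arrays.

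Ggps1, which makes geranylgeranyl diphosphate for protein prenylation, differed by 0.30 ± 0.17 SE with overlapping groups. Tm7sf2, a sterol reductase, differed by 0.17 ± 0.10 SE, Hsd17b7, a sterol ketone reductase, by -0.21 ± 0.13 SE, and Msmo1, the methylsterol monooxygenase that acts after Cyp51, by -0.11 ± 0.11 SE. The farnesyl diphosphate synthase Fdps, which supplies Fdft1, differed by 0.0028 (95% interval -0.32 to 0.33), and Lss, lanosterol synthase, which follows Sqle, by 0.0073 (-0.25 to 0.27). The enzymes directly before Fdft1 and directly after Sqle therefore had differences near 0, while those of Fdft1 and Sqle lay below 0, and the contrast between them was not tested. Fdps and Lss were named after their values were seen. Without DMSO replicate 1 the median of the 13 was -0.053, with 5 above 0 and 8 below; it was 0.060 without DMSO replicate 2 and 0.051 without sulforaphane replicate 2. With an array left out, Mvk ran from 0.14 to 0.45 and Ggps1 from 0.12 to 0.49, both lowest without DMSO replicate 1, and Hsd17b7 from -0.33 (sulforaphane replicate 1 left out) to -0.081 (sulforaphane replicate 2 left out).

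Genes that sense sterols, cleave SREBP or move sterols into or within the cell lay mostly above 0. The list included the lipoprotein receptors Scarb1 (0.048) and Vldlr (-0.033), named after their values were seen. Of 11 tested, 9 lay above 0 and 2 below, with a median of 0.12, where 45.8% of all genes lay below 0, and 0 passed by limma in either direction, against 0.13% of all genes. Lipa, the lysosomal acid lipase that frees cholesterol from its esters, measured 11.41 and 11.41 in sulforaphane-treated cells, against 11.01 and 11.10 in DMSO-treated cells. Its groups did not overlap, and the difference of 0.35 ± 0.11 SE had an unadjusted p of 0.0164 and an adjusted p of 0.261 by limma. Insig2, the paralogue of Insig1, measured 6.87 and 6.85 in sulforaphane-treated cells, against 6.66 and 6.66 in DMSO-treated cells. Its difference of 0.20 ± 0.10 SE did not pass by limma and had the same sign as that of Insig1. Mbtps1, the site-1 protease, differed by 0.21 ± 0.11 SE, the escort Scap by 0.14 ± 0.12 SE and the oxysterol-binding protein Osbp by 0.18 ± 0.17 SE. Without DMSO replicate 1 the median of the 11 genes was 0.010 (6 above 0 and 5 below), and Osbp turned to -0.016. Without DMSO replicate 2 the median was 0.19 (10 above 0 and 1 below), and without sulforaphane replicate 2 Scap was at 0.038.

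The lipogenic genes, which are mainly controlled by SREBP-1, had a median of 0.0048 over 11 tested genes, with 6 above 0 and 5 below, and 0 passed by limma in either direction, against 0.13% of all genes. Acss2, which makes acetyl-CoA from acetate, measured 8.90 and 9.08 in sulforaphane-treated cells, against 8.37 and 8.32 in DMSO-treated cells. The groups did not overlap, and the difference of 0.64 ± 0.12 SE had an adjusted p of 0.110 by limma (0.0202 with an intensity trend in the variance). Me1, the NADP-dependent malic enzyme and a known NRF2 target, measured 5.34 and 5.13 in sulforaphane-treated cells, against 4.49 and 4.77 in DMSO-treated cells. Its difference was 0.60 ± 0.15 SE (adjusted p = 0.188 by limma). The desaturase Scd1 differed by 0.39 ± 0.23 SE, the desaturase Fads2 by -0.20 ± 0.12 SE and the elongase Elovl6 by -0.16 ± 0.18 SE, and Elovl6 turned to 0.067 without DMSO replicate 2. Scd1 was at 0.044 without DMSO replicate 1 and 0.74 without DMSO replicate 2. The median of the list was -0.022 without DMSO replicate 1 (4 above 0 and 7 below), 0.11 without DMSO replicate 2 (8 above 0 and 3 below), -0.0019 without sulforaphane replicate 1 and 0.030 without sulforaphane replicate 2.

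Among genes of oxysterol formation and cholesterol export the differences ran from -1.55 to 0.66. Of 7 tested, 1 fell by limma and 0 rose, against 0.0683% and 0.0614% of all genes. Ch25h measured 7.60 and 7.83 in sulforaphane-treated cells, against 9.36 and 9.18 in DMSO-treated cells, and fell by 1.55 on the log2 scale (SE 0.14; adjusted p = 0.0326 by limma). It missed the threshold with the mean of its probe sets (-1.07, adjusted p = 0.0546) and, at the same difference of -1.55, with the replicate number as a block (adjusted p = 0.0510 by limma). With 1 array left out the difference was between -1.67 and -1.44; a group of 1 array takes its spread from the other group, and such fits called 0 genes in all. Its product is the oxysterol named above that holds back SREBP-2, and the relation of this fall to the synthesis genes was not tested.

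Mylip, the ubiquitin ligase that degrades lipoprotein receptors and an LXR target, measured 9.24 and 9.20 in sulforaphane-treated cells, against 8.59 and 8.54 in DMSO-treated cells. Both groups were tight, and the difference was 0.66 ± 0.11 SE (adjusted p = 0.0864 by limma). It passed with the filter at the 60th percentile (adjusted p = 0.0448) and with an intensity trend (0.0108), both by limma. Abca1, a cholesterol exporter and also an LXR target, measured 8.02 and 8.04 in sulforaphane-treated cells, against 8.59 and 8.41 in DMSO-treated cells. Its difference was -0.47 ± 0.12 SE (adjusted p = 0.192 by limma). These LXR targets thus lay on opposite sides of 0. Nr1h3, which encodes LXR alpha, differed by -0.44 ± 0.11 SE (adjusted p = 0.191) and the sterol hydroxylase Cyp27a1 by 0.38 ± 0.15 SE (adjusted p = 0.370), both by limma. The exporter Abcg1 (0.17) and the cholesterol ester hydrolase Nceh1 (0.073), named after their values were seen, lay within the range of the sterol synthesis genes above, -0.33 to 0.30. The median of the list was 0.073, and it was 0.13 without DMSO replicate 1, 0.014 without DMSO replicate 2 and 0.16 with the mean of probe sets. Cyp27a1 was at 0.20 without DMSO replicate 1.

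**Figure D3:**
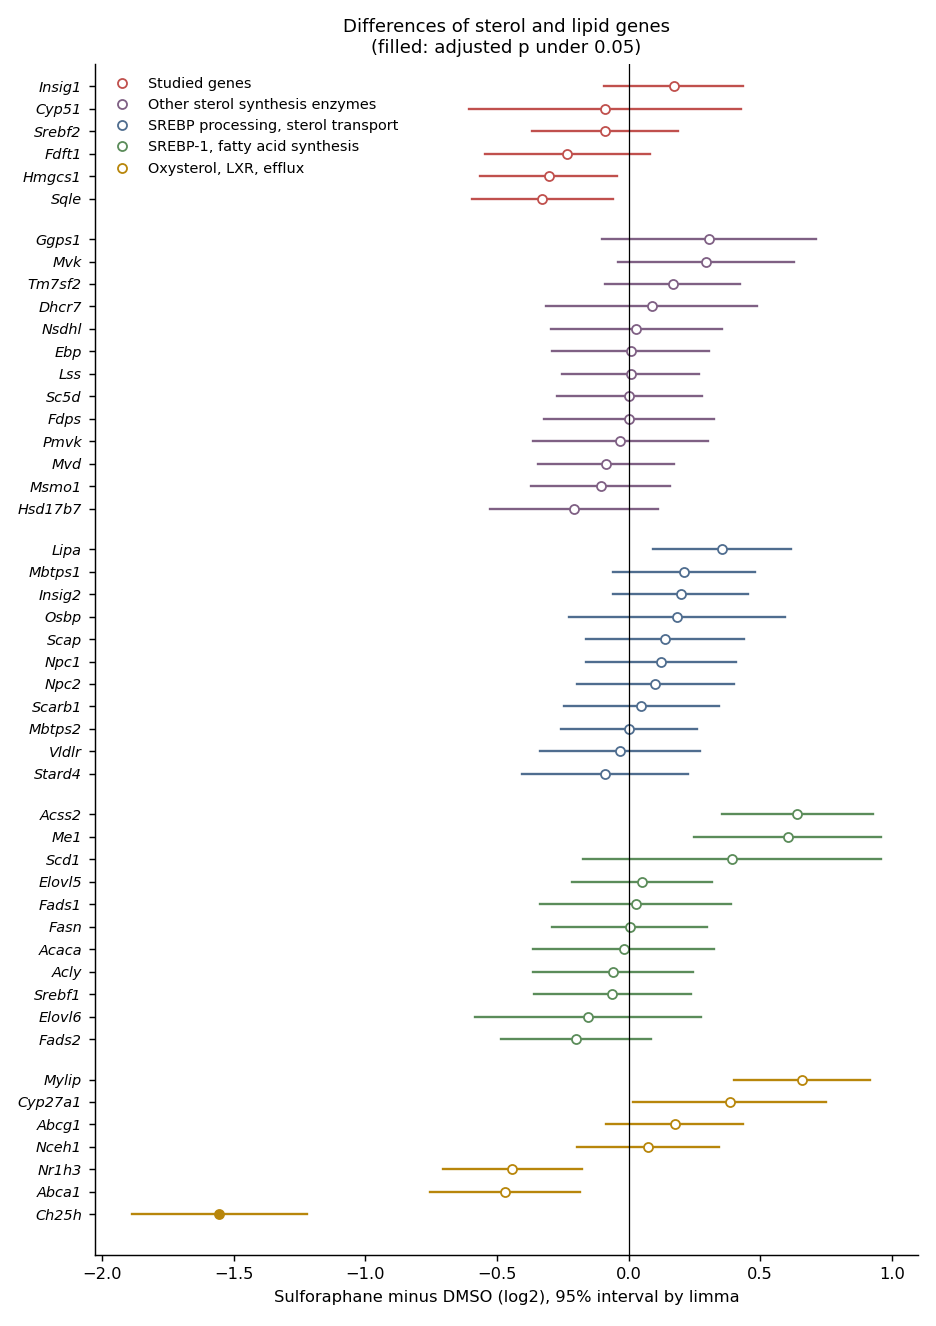
Difference between sulforaphane and DMSO (log2, point) with its 95% interval by limma (line) for the 6 measured cholesterol synthesis genes and the tested genes of 4 related lists, coloured by list. The only filled point, Ch25h at -1.55, passed an adjusted p of 0.05, and the intervals of Hmgcs1 and Sqle lie below 0 without passing after adjustment.

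Every gene above was read from the same 4 arrays, whose value ranges and cell type markers are described here. The array medians were 3.24 to 3.27, and the interquartile range was 3.41 in DMSO replicate 1 against 3.61 to 3.62 in the other 3 arrays. All 12 measured dendritic cell markers were above the filter, with means over the 4 arrays from 4.72 for the growth factor receptor Flt3 and 6.16 for the lineage factor Zbtb46 to 11.68 for the MHC class II gene H2-Ab1. All 12 measured macrophage markers and all 8 neutrophil markers were also above the filter, with Csf1r at 11.23 and Ltf at 11.20, as were 6 of 8 mast cell and basophil markers, with Cpa3 at 9.98. The 7 T and NK cell markers lay between 2.36 and 3.81, the 5 measured B cell markers between 2.48 and 4.22 and the 6 stromal markers between 2.36 and 4.50. Above the filter were 3, 3 and 4 of these. Over all genes 14652 of 22180 were above it, so passing it does not by itself show a cell type. The mean of the 12 dendritic cell markers was 8.51 and 8.52 in sulforaphane-treated cells, against 8.66 and 8.78 in DMSO-treated cells (median difference -0.16, 6 above 0 and 6 below; -0.27 without DMSO replicate 1, -0.24 without sulforaphane replicate 1 and -0.099 without DMSO replicate 2). The 6 below 0 were Irf4 (-0.87), Batf3 (-0.64), Ciita (-0.46), Kmo (-0.45), Flt3 (-0.42) and Zbtb46 (-0.34). All 6 had groups that did not overlap, against 19.5% of all genes lower without overlap. They also had an unadjusted p under 0.05 by limma, against 5.87% of all genes lower at that p. Of the 6 above 0, H2-Ab1 (0.26), H2-Aa (0.16) and Itgax (0.066) did not overlap, against 24% of all genes higher. The groups of Cd86 (0.095), Ccr7 (0.092) and Cd209a (0.024) overlapped. After adjustment by limma, 0 of the 12 passed (adjusted p = 0.0565 for Irf4), against 0.13% of all genes. The mean of the 12 macrophage markers was 8.48 and 8.55 in sulforaphane-treated cells, against 8.66 and 8.70 in DMSO-treated cells (median difference -0.11, 2 above 0 and 10 below; -0.17 without DMSO replicate 1, -0.065 without sulforaphane replicate 2 and -0.065 without DMSO replicate 2). That of the 8 neutrophil markers was 9.46 and 9.34 in sulforaphane-treated cells, against 9.23 and 9.49 in DMSO-treated cells (median difference 0.044, 6 above 0 and 2 below). This median turned to -0.038 without DMSO replicate 1, with 1 above 0 and 7 below, and was 0.17 without sulforaphane replicate 2 and 0.21 without DMSO replicate 2. Of the 6 tested mast cell and basophil markers, 1 lay above 0 and 5 below (median -0.080, between -0.19 and -0.022 with an array left out). Hdc (-0.61) and Gata2 (-0.57) had an unadjusted p under 0.05 by limma, against 5.87% of all genes lower at that p. Ms4a2 (-0.11), Fcer1a (-0.050), Kit (-0.0071) and Cpa3 (0.015) did not reach it. Of the 12 macrophage markers, 2 were lower at that p, Vcam1 (-0.78) and Mertk (-0.39). Of the 8 neutrophil markers, 1 was, Cebpe (-0.40), again against 5.87% of all genes. The other macrophage markers did not reach it and ran from -0.28 (Fcgr1) to 0.18 (C1qc). Nor did the other neutrophil markers, which ran from -0.039 (Ltf) to 0.26 (Mpo). None of these markers passed after adjustment by limma. The part of these marker levels in the differences of Hmgcs1, Sqle and Insig1 was not tested.

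With each array left out in turn, the differences of Hmgcs1 ran from -0.34 to -0.27 and those of Sqle from -0.37 to -0.29. Those of Insig1 ran from 0.13 to 0.22, those of Srebf2 from -0.15 to -0.029 and those of Fdft1 from -0.36 to -0.11. Cyp51 changed direction, from -0.40 to 0.22. Srebf2 kept its direction although its groups overlapped. The groups of Hmgcs1, Sqle, Insig1 and Fdft1 did not overlap, so leaving out 1 array could not turn their direction. Each of these fits leaves 1 array in a group, so they are read for the size of the difference only.

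**Figure D4:**
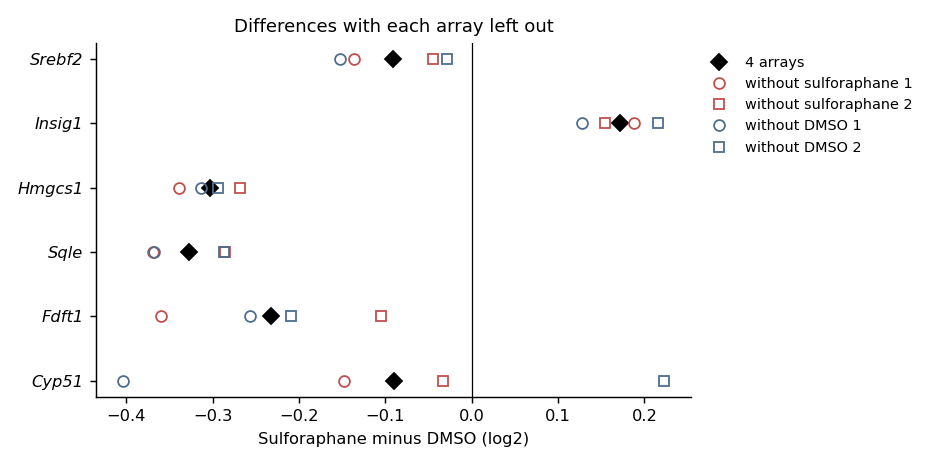
Difference between sulforaphane and DMSO (log2) of the 6 measured genes with all 4 arrays (black diamond) and with each array left out (open symbols, red for a sulforaphane array and blue for a DMSO array). Srebf2, Insig1, Hmgcs1, Sqle and Fdft1 stay on 1 side of 0, which is fixed for all but Srebf2 because their groups do not overlap. Cyp51 lies at -0.40 without DMSO replicate 1 and at 0.22 without DMSO replicate 2.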

How the data were processed

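Total RNA of 4 dendritic cell samples was hybridised to Affymetrix arrays as biotin-labelled cRNA, per the labels' protocols. Per the submitters' processing notes, the authors used RMA and R 2.15.1, and the deposited values are log2. RMA corrects the background, gives the single probes of the arrays 1 common distribution and then combines the probes of a probe set. The deposited values did not share 1 distribution. Their interquartile range was 3.41 in DMSO replicate 1 against 3.61 to 3.62 in the other arrays. No log base stands in the table, and base 2 was assumed because RMA uses it and the values ran from 1.24 to 13.1, so all folds depend on it. Whether values were filtered, and at which level they were summarised, is not given in the sources used here. Precision is limited by the number of arrays.

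The table held 41345 probe sets, of which 23521 had exactly 1 symbol in the platform annotation, 1814 had several and 16010 were not listed. A gene with several probe sets was read from the brightest, by its mean. The dimmest genes, up to the 40th percentile of the means over all probe sets (2.91), were left out. Sulforaphane minus DMSO was fitted over all 14652 genes with limma 3.58.1 (lmFit and eBayes, 2 residual and 4.02 prior degrees of freedom) in R 4.3.3 without a replicate block, adjusted by the Benjamini-Hochberg method at 0.05. Errors of differences are moderated SE. The fit was tested on simulated data. The Entrez identifiers of all 6 measured genes gave the same symbol in RefSeq GRCm38.p6.

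The members and gene lists were chosen with earlier results of these data known, so lists are described by counts and medians without a test. The naming rule took all measured members, the 5 genes with the smallest unadjusted p of each related list, and the 5 genes nearest to the mean pattern of the members, passing over predicted genes. Alternatives were each array left out, an intensity trend in eBayes, a replicate block, the mean over the probe sets of a gene, quantile normalization once more, median centring, a 60th percentile filter and no filter.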

Additional observations from a re-analysis of the deposited data

How the results depend on the processing

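None of the 6 measured cholesterol synthesis genes passed by limma under any alternative that kept all arrays. The smallest adjusted p was 0.144 by limma (Hmgcs1, with an intensity trend). Fits with an array left out are not counted in this, because a group of 1 array takes its spread from the other group. Over the alternatives that kept all arrays, the median difference of the 6 genes ran from -0.20 to -0.14. With an array left out it ran from -0.28, without DMSO replicate 1, to -0.075, without sulforaphane replicate 2. With an array left out, Cyp51 ran from -0.40 to 0.22, Elovl6 from -0.38 to 0.067 and Osbp from -0.016 to 0.38; the sign of Cyp51 and Elovl6 changed without DMSO replicate 2 and that of Osbp without DMSO replicate 1.

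Over all genes, 19 were called (9 higher and 10 lower). The count was 138 (57 higher and 81 lower) with the filter at the 60th percentile, 106 (34 and 72) with a second quantile normalization, 34 (11 and 23) with the mean of probe sets and 249 (96 and 153) with an intensity trend. It was 0 with any array left out, when 1032 to 2814 genes had an unadjusted p under 0.05 by limma. The cause of these shifts was not tested. With the replicate block 8 genes were called, 4 higher and 4 lower. Samples with the same number did not deviate together (correlation -0.081 across genes), and the labels do not say what a number shares, so the numbers were not used as pairs.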
